A study of Homo sapiens with 12 samples.

Results

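The proteasome genes of human SH-SY5Y cells were examined at the RNA level in 12 libraries. The members were the rows of the count table with at least 50 counts over all libraries whose symbol is PSM followed by a letter from A to G and a number, together with POMP and ADRM1. Of 60710 rows in the table, 50 carried such a symbol and 47 reached the count minimum. PSMA8 (1 count), PSMB11 (0 counts) and PSMB9 (20 counts) fell short. The 47 were 7 alpha and 9 beta genes of the 20S core, 6 ATPase and 15 non-ATPase genes of the 19S cap, 5 activators or inhibitors and 5 assembly chaperones. Classes followed the symbol alone. The cap class took PSMC, PSMD and ADRM1, and the chaperone class PSMG and POMP. Whether each gene of the cap class encodes a subunit of the mature cap was not examined. The members closest to the minimum were PSMB8 with 106 counts and PSMB10 with 183. All 47 members passed the filter on low counts and were tested with the other genes, 16366 in all.

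SH-SY5Y is an established line derived from a human neuroblastoma. Cells at 80% confluence in 2 mL of medium received 10 µL of DMSO, alone or with HPPE, zinc protoporphyrin or tin protoporphyrin at a final 5 µM, and were lysed after 5 h. Each of the 4 groups held 3 libraries. Zinc and tin protoporphyrin hold a metal other than iron in the ring of heme, and they differ from each other in that metal. HPPE is not spelled out in the labels. Nothing in the labels says that the 3 libraries of a group came from separate cultures, so p-values measure the spread between these libraries, which may be technical.

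The proteasome is the protease complex that degrades proteins tagged with ubiquitin. Its 20S core is a barrel whose outer rings of alpha subunits guard the entry and whose inner rings of beta subunits hold the active sites, and the 19S cap binds ubiquitin chains, removes them and threads the substrate into the core with a ring of ATPases. Transcription factor NRF1, encoded by NFE2L1, raises most of these genes together when proteasome capacity falls short, and the related factor NRF2 raises some of them under oxidative or electrophilic stress; both pair with small MAF proteins on antioxidant response elements.

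The letters TGACNNNGC, the core of the antioxidant response element, were searched on both strands in RefSeq promoter windows of 300 bases (build GRCh38.p14, 250 bases before to 50 after a gene's start). A window was found for 41 of the 47 members, and 15 of these 41 (36.6%) held at least 1 match, against 16.1% of 27305 genes with a window. The windows shown first belong to the members with a match among those that differed most clearly between compounds: ADRM1 (chr20:62302759-62302767), PSMA4 (chr15:78540660-78540668), PSMB3 (chr17:38752637-38752645) and PSMC4 (chr19:39971192-39971200). PSME4 (chr2:53971019-53971027), PSMD3 (chr17:39980770-39980778) and PSMD12 (chr17:67366734-67366742) follow as members with a match and another pattern of RNA. Coordinates are those of the 9-base match. Each sequence runs 5′ to 3′ on the gene's strand, with up to 10 bases on either side of the match, and capitals mark the match. PSME4 and PSMD12 lie on the minus strand of the chromosome and the others on the plus strand, and the match itself is on the reverse strand of the gene in PSMC4 and PSME4.
ADRM1: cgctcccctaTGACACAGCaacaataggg
PSMA4: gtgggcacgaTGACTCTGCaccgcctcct
PSMB3: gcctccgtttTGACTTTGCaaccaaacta
PSMC4: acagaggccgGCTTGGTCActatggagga
PSME4: cccggcggctGCAGCGTCAccagcagagc
PSMD3: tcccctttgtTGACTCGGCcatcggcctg
PSMD12: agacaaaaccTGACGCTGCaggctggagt
The matches began 137 bases before the first of the 2 listed starts of ADRM1, 126 before the third start of PSMA4, 104 before that of PSMB3, 34 before that of PSME4, 37 before that of PSMD3, 165 before that of PSMD12 and 27 after that of PSMC4. PSMD3 held a second match, on the reverse strand 33 bases after the start (chr17:39980840-39980848). A match describes letters, not a site that is known to be bound.

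The 250 bases before the start of PSMA3 (chr14:58244593-58244842) and of PSMD11 (chr17:32444260-32444509), both on the plus strand, are shown because PSMA3 was the 1 member called with HPPE against the solvent and PSMD11 the member with the steadiest difference between compounds. Capitals mark CCAAT or its reverse ATTGG, the letters of the CCAAT box of many promoters. Neither stretch held TGACNNNGC. PSMA3 held a CCAAT match at 2 places, 35 and 18 bases before the start, and PSMD11 held none. CCAAT was found in the windows of 19 of 41 members (46.3%) and of 39.7% of all genes.
PSMA3: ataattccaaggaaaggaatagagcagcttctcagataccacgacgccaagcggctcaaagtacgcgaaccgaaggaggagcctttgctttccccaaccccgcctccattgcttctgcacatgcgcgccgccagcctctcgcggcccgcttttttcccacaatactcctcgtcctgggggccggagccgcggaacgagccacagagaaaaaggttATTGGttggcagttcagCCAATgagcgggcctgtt
PSMD11: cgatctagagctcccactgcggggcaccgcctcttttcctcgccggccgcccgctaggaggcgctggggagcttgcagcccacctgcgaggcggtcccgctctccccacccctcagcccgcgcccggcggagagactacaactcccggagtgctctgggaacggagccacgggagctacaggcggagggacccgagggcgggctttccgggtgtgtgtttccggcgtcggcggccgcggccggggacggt

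Depth was uneven, from 1337028 counts in replicate 1 of zinc protoporphyrin to 9145399 in replicate 2 of tin protoporphyrin, so that 3 counts, taken as the floor of detection, were worth 2.24 CPM in the first and 0.328 CPM in the second. CPM is a gene's count relative to the size of its library, and here the sizes carried edgeR's TMM scaling factors. Replicate 3 of the DMSO control was also shallow, at 1514595 counts and a floor of 1.98 CPM. Floors cover counting error only. The 12 noradrenergic markers of the line summed to 4672 to 4854 CPM in the DMSO controls, 4353 to 4381 with HPPE, 4033 to 4499 with zinc protoporphyrin and 4372 to 4498 with tin protoporphyrin, so that all compound libraries lay below all controls. Of the 11 tested with edgeR, at an unadjusted p under 0.05, 4 were lower with HPPE, 5 with zinc protoporphyrin and 2 with tin protoporphyrin (1 higher). Of all genes, 17.7%, 18.6% and 14.7% had such a p in either direction, in the same order. After adjustment 1 of the 11 was called, lower with HPPE, where 1.47% of all genes were called lower. Of the 11 log2 fold changes, 1 was above 0 with HPPE and 2 with each protoporphyrin. TH, the other marker, was at 0 in 8 libraries. The 8 mesenchymal markers summed to 750.4 to 842 CPM in DMSO, 905 to 929.6 with HPPE, 837 to 944 with zinc protoporphyrin and 965 to 1001 with tin protoporphyrin. Among the 7 of them tested, CD44 was called higher with all 3 compounds against DMSO, SNAI2 with HPPE and COL1A2 with both protoporphyrins. None was called lower. Of the 7 log2 fold changes, 5 were above 0 with HPPE and 7 with each protoporphyrin. Of all genes, 2.57% were called higher with HPPE, 1.84% with zinc protoporphyrin and 1.9% with tin protoporphyrin. The part of these marker differences in the proteasome values was not tested. Blood immune markers, which would mark cells rich in the immunoproteasome, summed to at most 1.46 CPM, and none passed the filter. Replicates 2 and 3 of HPPE were the most alike pair within a group, with a chi-square per degree of freedom of 1.11 (others 1.49 to 17.3), still more than sampling noise, and were kept apart. Replicate 3 of the DMSO control deviated from its group in the opposite direction to replicates 1 and 2 (correlations -0.88 and -0.73). Replicates 1 and 2 of tin protoporphyrin opposed each other as much (-0.88). Deviations from a mean of 3 libraries sum to 0, so part of such opposition is built in. Libraries also differed by a trend on transcript length: the Spearman correlation of a library's deviations from the gene means with transcript length, across 10952 genes that are not independent replicates, ran from -0.54 to 0.57.

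Per length of transcript, the subunits of one complex differed widely in their RNA. Levels in TPM (abundance per length of transcript, from the median length of each gene's principal transcripts in GENCODE release 29) were highest in the DMSO control for PSMB4, a structural beta subunit, at 478 ± 109 TPM (SD, n = 3). PSME3, the nuclear PA28-gamma activator, stood at 448 ± 48.4 TPM. PSMD4, a ubiquitin receptor of the cap, stood at 331 ± 51.4 TPM and PSMA7, an alpha subunit, at 314 ± 45.9 TPM. The spread of PSMB4 covered the mean of PSME3, and those of PSMD4 and PSMA7 covered each other's mean. The SD ranges of PSME3 and PSMD4 did not meet. These levels came from the same 3 libraries, and differences between genes within a library were not tested.

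**Figure D1:**
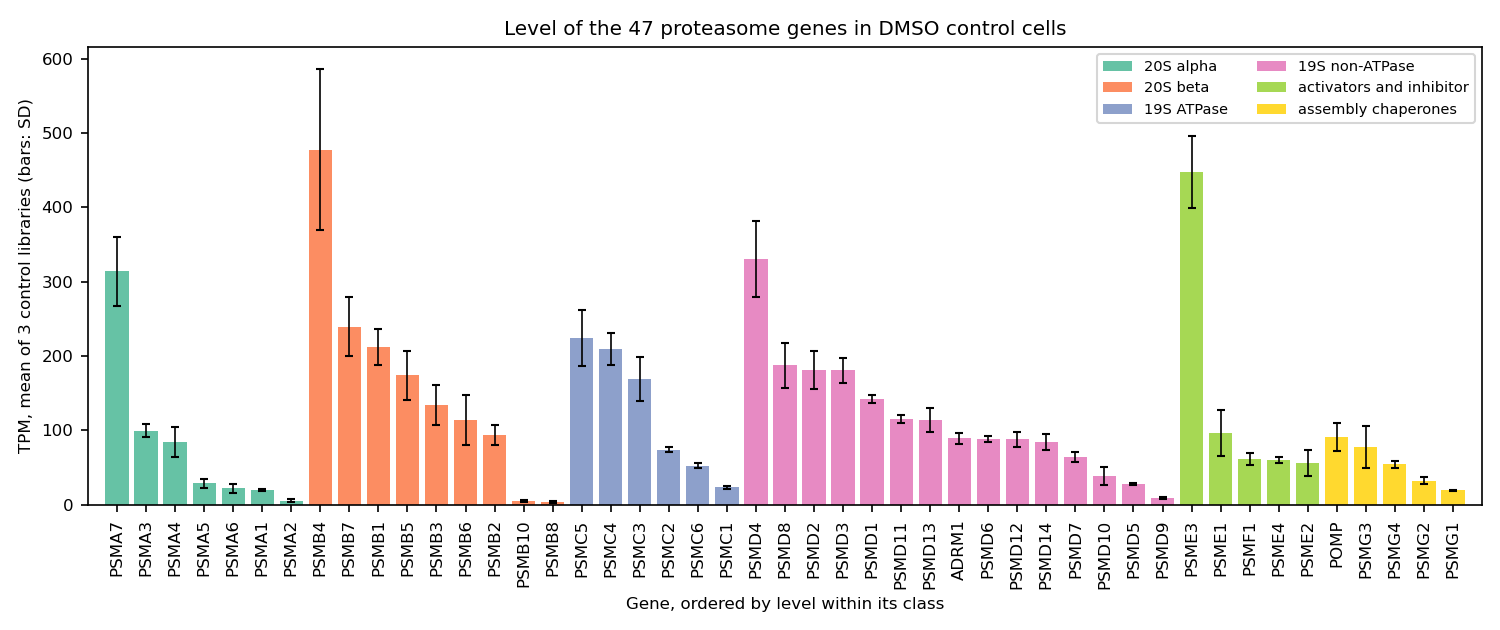
The bars give the mean level in TPM (vertical axis) of each of the 47 proteasome genes (horizontal axis) in the 3 DMSO control libraries, with the SD as error bars and colours for the class. PSMB4, PSME3, PSMD4 and PSMA7 stand highest, and the immunoproteasome genes PSMB8 and PSMB10 are close to 0.

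The catalytic subunits of the standard core far outranked those of the immunoproteasome, which replace them in immune cells and after interferon. In the DMSO control PSMB7 stood at 239.7 ± 39.5 TPM, PSMB5 at 174 ± 33.1 and PSMB6 at 114 ± 33.5 (SD, n = 3). PSMB10 stood at 4.94 ± 0.835 TPM and PSMB8 at 2.98 ± 1.35. PSMB8 was at 1.59, 1.72 and 0.638 CPM in the DMSO controls, 1.0004, 1.51 and 1.27 with HPPE, 1.51, 1.57 and 0.722 with zinc protoporphyrin and 1.41, 1.01 and 1.95 with tin protoporphyrin. These values lie near the floors of the libraries, and the groups overlapped in all comparisons. PSMB9, outside the members at 20 counts, was at 0 in 4 libraries and did not exceed 0.523 CPM.

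Low levels of some alpha subunits came with overlapping gene models. PSMA2 stood at 5.41 ± 2.04 TPM, PSMA1 at 19.7 ± 1.17 and PSMA6 at 21.8 ± 5.69, although each outer ring of the core holds every alpha subunit. Annotated readthrough genes on the same strand cover 52.5%, 53.2% and 81.0% of their exonic bases in GENCODE release 29, and 45.3% of those of PSMB10 and 28.2% of those of PSMD9 (43.8% together with WDR66, a neighbour on the same strand). The readthrough gene over PSMB10 held 522 counts, more than PSMB10 itself, while those over the others held 0 to 11. Genes on the other strand cover 82.1% of PSMC1, 50.4% of PSMD7, 27.2% of PSMC5 and 24.1% of ADRM1, and at most 17.3% of any other member. Whether counting used strand is not given in the sources used here, so reads of PSMC1 and NRDE2, for example, cannot be told apart. The part of overlaps in these levels was not tested. Rows of PSM pseudogenes held 0.248% as many counts as the members.

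Summed over their genes, 20S and 19S transcripts moved together from library to library. The 16 genes of the 20S core summed to 827, 854 and 1127 CPM in the DMSO controls, 931, 1129.7 and 1128 with HPPE, 879, 853 and 712 with zinc protoporphyrin and 1102, 786 and 919 with tin protoporphyrin. The HPPE libraries lay above all zinc protoporphyrin libraries, and every other pair of groups overlapped. The 21 genes of the 19S cap summed to 1963, 2013 and 2261 CPM in the DMSO controls, 2119, 2281 and 2287 with HPPE, 1973, 1986 and 1804 with zinc protoporphyrin and 2159.5, 1895 and 1979.6 with tin protoporphyrin. Again only HPPE and zinc protoporphyrin did not overlap among the 6 pairs of groups. The ratio of the 20S to the 19S sum was 0.422, 0.424 and 0.499 in DMSO, 0.439, 0.495 and 0.493 with HPPE, 0.446, 0.429 and 0.394 with zinc protoporphyrin and 0.510, 0.415 and 0.464 with tin protoporphyrin, and all pairs of groups overlapped. Group means of the 20S sum were 936 ± 166, 1063 ± 114, 815 ± 90.2 and 936 ± 159 CPM (SD, n = 3) in the same order.

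**Figure D2:**
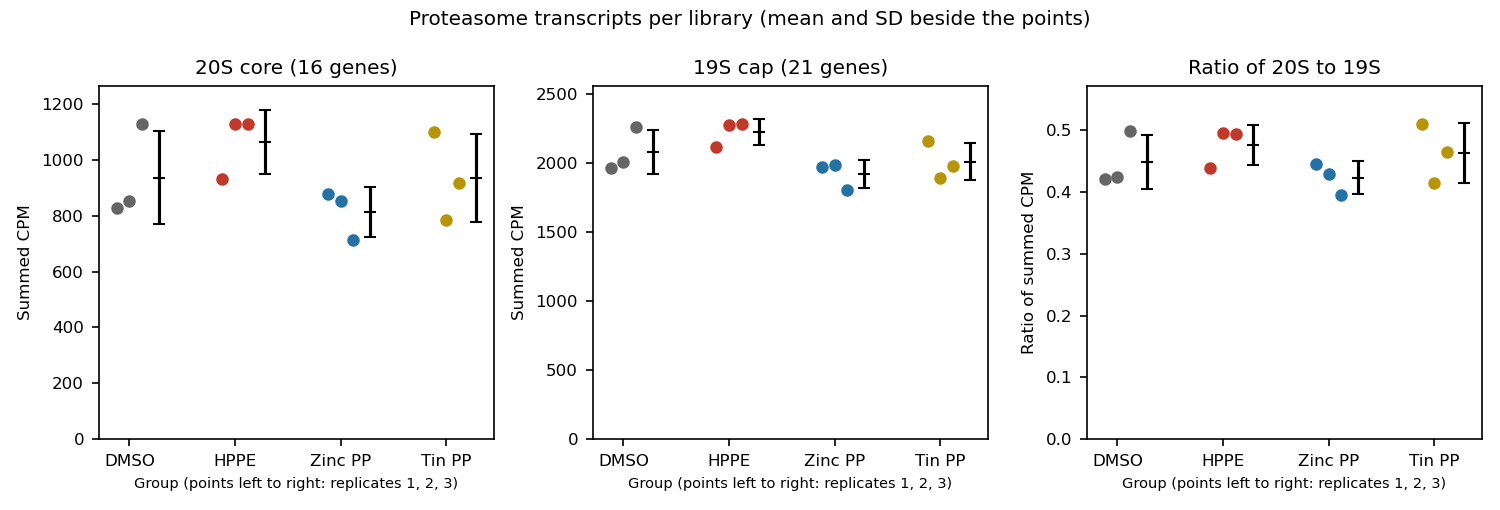
Each point is 1 library, with its group on the horizontal axis and, on the vertical axes, the summed CPM of the 20S core, that of the 19S cap and their ratio; bars beside the points give mean and SD (n = 3). The HPPE points lie above the zinc protoporphyrin points in both sums, and the DMSO and tin protoporphyrin points spread over most of the range.

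The 20S sums were ordered much like the length trend of the libraries. The 4 libraries with a length correlation below -0.45 had a 20S sum of 1102 to 1130 CPM. They were replicate 3 of DMSO, replicates 2 and 3 of HPPE and replicate 1 of tin protoporphyrin, with none of zinc protoporphyrin. The 3 libraries with the highest length correlations, 0.437 to 0.567, had a 20S sum of 711.7 to 827 CPM. They were replicate 1 of DMSO, replicate 3 of zinc protoporphyrin and replicate 2 of tin protoporphyrin, with none of HPPE. The longest transcripts of the 20S genes had a median of 1733 bases and those of the 19S genes 2939 bases, against 3327 bases over all genes tested with a length. Within the 20S core the alpha genes had a median of 3729 bases and the beta genes 1294, and the activators had 3366 and the chaperones 1686. These medians depend on the transcript chosen. The longest and the principal transcript had 4251 and 1487 bases in PSMA2 and 4730 and 1029 in PSMA6, but both had 3729 in PSMA5. The alpha sum was 34.3% and the beta sum 28.5% higher with HPPE than with zinc protoporphyrin, the chaperone sum 31.7% and the activator sum 2.66%. The part of transcript length in these differences was not tested. HPPE libraries lay at -0.0987, -0.472 and -0.453 and zinc protoporphyrin libraries at 0.222, 0.385 and 0.567, without overlap, so the compound and this trend move together in that comparison.

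**Figure D3:**
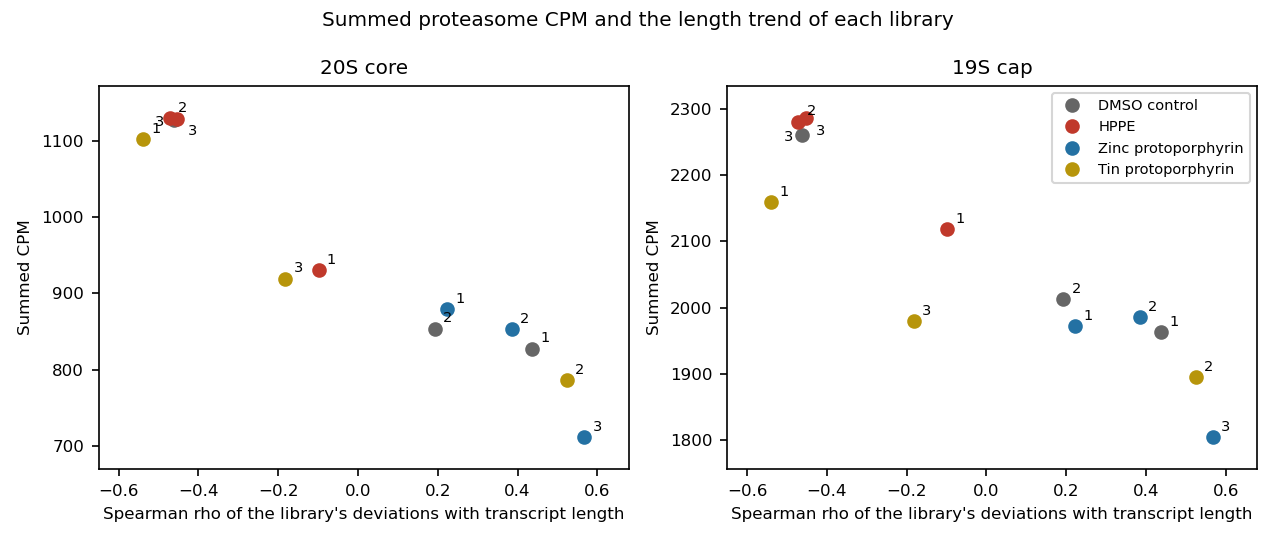
Each point is 1 library, labelled with its replicate number; the horizontal axis is the Spearman correlation of the library's deviations with transcript length and the vertical axis the summed CPM of the 20S core (left) or the 19S cap (right). Replicate 3 of DMSO lies beside replicates 2 and 3 of HPPE in both panels, and replicate 1 of tin protoporphyrin does so for the 20S core.

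HPPE against the DMSO control showed 1 called member among the 47, PSMA3, which was higher; 2.57% of all genes tested were called higher and 1.47% lower. No member was called lower by edgeR or DESeq2, and at an unadjusted p under 0.05 there were 8 members higher and 0 lower, where 17.7% of all genes had such a p in either direction. The members leaned upward by little: 39 of 47 log2 fold changes were above 0, with a median of 0.20 (all genes: 52.3% above 0, median 0.02). In the same libraries HMOX1, a heme oxygenase and NRF2 target, rose 65.9-fold (edgeR adjusted p = 2.62e-11). In bulk RNA a change in the number of cells of one kind and a change in RNA per cell cannot be told apart.

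PSMA3, the alpha7 subunit of the gate ring (ENSG00000100567.13, chr14:58244831-58272012, plus strand), was at 34.4, 38.9 and 40.2 CPM in the DMSO controls, 45.1, 54.1 and 56.4 with HPPE, 33.9, 43.7 and 42.5 with zinc protoporphyrin and 48.6, 40.3 and 41.0 with tin protoporphyrin. All HPPE libraries lay above all DMSO libraries. The log2 fold change was 0.46 ± 0.12 (SE, n = 3), a 1.38-fold difference, with an edgeR adjusted p of 0.0338. With the length trend removed it was 0.32 ± 0.10 (adjusted p = 0.0465). The difference of the HPPE effect from the other compounds was not called: 0.31 ± 0.12 against zinc protoporphyrin (adjusted p = 0.0820) and 0.25 ± 0.11 against tin protoporphyrin (adjusted p = 0.350). Over the other 6 alpha subunits the log2 fold change with HPPE ran from 0.05 in PSMA2 to 0.37 in PSMA1, none called.

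Among the beta subunits none was called with HPPE, and the smallest adjusted p was 0.38. PSMB5, the chymotrypsin-like active site, was at 77.3, 79.9 and 108 CPM in the DMSO controls, 94.4, 107 and 98.5 with HPPE, 83.6, 75.9 and 64.5 with zinc protoporphyrin and 99.0, 69.4 and 82.0 with tin protoporphyrin. PSMB6, the caspase-like site, was at 30.3, 33.1 and 51.0 CPM in the DMSO controls, 37.5, 49.2 and 42.7 with HPPE, 46.7, 33.2 and 29.95 with zinc protoporphyrin and 44.7, 34.9 and 38.7 with tin protoporphyrin. PSMB7, the trypsin-like site, was at 82.0, 84.6 and 109.8 CPM in the DMSO controls, 85.9, 105 and 100.4 with HPPE, 88.1, 91.7 and 80.7 with zinc protoporphyrin and 93.8, 87.4 and 85.6 with tin protoporphyrin. In all 3 genes the highest of the 12 libraries was replicate 3 of DMSO, a shallow library in which PSMB6 held 80 counts. The HPPE and DMSO groups overlapped in all 3 genes. Their log2 fold changes were 0.23 ± 0.13, 0.30 ± 0.17 and 0.12 ± 0.11 (SE, n = 3), with edgeR adjusted p-values of 0.387, 0.390 and 0.595. PSMB10, the inducible counterpart of PSMB7, was at 2.51, 2.64 and 1.91 CPM in the DMSO controls, 1.75, 1.75 and 1.58 with HPPE, 0.753, 2.09 and 3.25 with zinc protoporphyrin and 2.11, 3.37 and 2.09 with tin protoporphyrin. All HPPE libraries of PSMB10 lay below all DMSO libraries, but at a few CPM the log2 fold change of -0.53 ± 0.35 was not called (adjusted p = 0.452).

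In the 19S cap no member was called with HPPE, while 5 of 21 had an unadjusted p under 0.05, all higher. Of all genes, 17.7% had such a p in either direction. PSMD11, the Rpn6 subunit that clamps cap and core together (ENSG00000108671.11, chr17:32444261-32483318, plus strand), was at 145, 155 and 149.95 CPM in the DMSO controls, 181, 187 and 193 with HPPE, 145, 128 and 117 with zinc protoporphyrin and 172, 134 and 158 with tin protoporphyrin. HPPE lay above DMSO in all libraries, with a log2 fold change of 0.32 ± 0.09 (SE, n = 3) and an edgeR adjusted p of 0.0717, which became 0.0176 with the length trend removed. PSMC2, an ATPase of the cap ring, was at 80.4, 80.6 and 86.8 CPM in the DMSO controls, 91.9, 104 and 109 with HPPE, 86.6, 84.5 and 75.5 with zinc protoporphyrin and 83.6, 75.5 and 78.8 with tin protoporphyrin. It too lay higher in every HPPE library than in any DMSO library, at 0.30 ± 0.09 (adjusted p = 0.0581; 0.0246 with the length trend removed). With that trend removed 3 members were called higher, PSMA3, PSMC2 and PSMD11, against 4.21% of all genes higher and 3% lower.

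The ubiquitin receptors and the deubiquitinase of the cap did not pass the test. ADRM1, the ubiquitin receptor Rpn13 (ENSG00000130706.13, chr20:62302093-62308862, plus strand), was at 50.1, 49.9 and 58.1 CPM in the DMSO controls, 65.2, 75.4 and 61.7 with HPPE, 44.4, 55.0 and 37.9 with zinc protoporphyrin and 64.2, 48.6 and 54.8 with tin protoporphyrin. HPPE lay above DMSO without overlap, at 0.40 ± 0.14 (SE, n = 3; edgeR adjusted p = 0.119). PSMD4, the receptor Rpn10, was at 152, 168 and 205 CPM in the DMSO controls, 177, 200.5 and 175 with HPPE, 170.2, 154 and 141 with zinc protoporphyrin and 192, 143 and 154 with tin protoporphyrin. Here the groups overlapped, at 0.10 ± 0.12 (adjusted p = 0.705). PSMD14, the deubiquitinase Rpn11, was at 56.8, 65.3 and 72.1 CPM in the DMSO controls, 73.5, 77.6 and 76.6 with HPPE, 64.8, 68.2 and 55.9 with zinc protoporphyrin and 74.5, 63.0 and 62.6 with tin protoporphyrin. HPPE lay above DMSO in all libraries, by little over the highest control, at 0.26 ± 0.10 (adjusted p = 0.201).

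PSMC4 and PSMD12 of the cap were not called either. PSMC4, an ATPase, was at 120.0, 126 and 146 CPM in the DMSO controls, 132, 152 and 164 with HPPE, 128, 122 and 107 with zinc protoporphyrin and 139, 121 and 121 with tin protoporphyrin, and PSMD12, the scaffold subunit Rpn5, at 172, 149 and 135 CPM in the DMSO controls, 148, 149 and 162 with HPPE, 154, 152 and 152 with zinc protoporphyrin and 138, 154 and 142 with tin protoporphyrin. Their log2 fold changes with HPPE were 0.21 ± 0.10 and -0.01 ± 0.09 (SE, n = 3; edgeR adjusted p = 0.293 and 0.966), with overlapping groups. For PSMD12 the 95% interval of the log2 fold change was -0.19 to 0.17, and PSMD12 carries the antioxidant response element letters printed above. Median log2 fold changes with HPPE were 0.23 for the 20S core and 0.11 for the 19S cap; with the length trend removed they were 0.14 and 0.04.

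**Figure D4:**
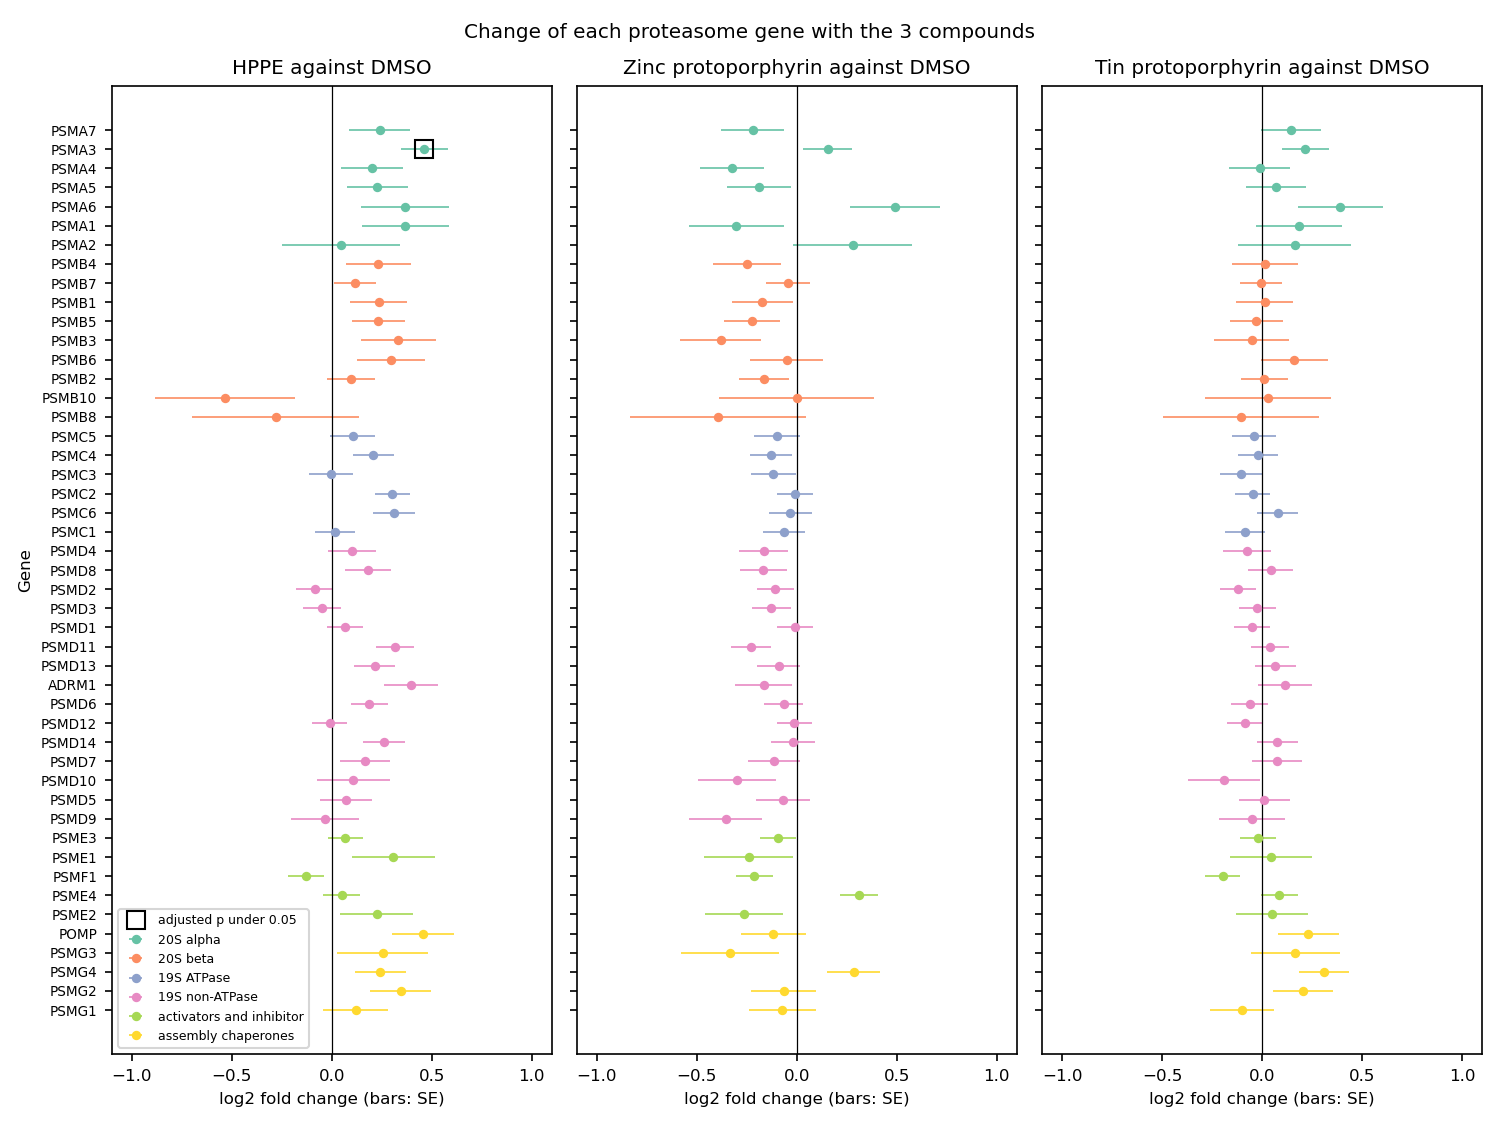
Each point is the log2 fold change of 1 proteasome gene (vertical axis) with HPPE, zinc protoporphyrin or tin protoporphyrin against DMSO (horizontal axis, bars are SE, n = 3 per group), coloured by class. A square marks PSMA3 with HPPE, the 1 call in the 3 panels; most points lie right of 0 with HPPE, left of 0 with zinc protoporphyrin and on both sides with tin protoporphyrin.

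The activators and the inhibitor showed no call with HPPE. PSME1 and PSME2, which form the interferon-inducible PA28-alpha/beta ring, had log2 fold changes of 0.31 ± 0.21 and 0.22 ± 0.18 (SE, n = 3), PSME3 of 0.07 ± 0.09, PSME4 of 0.05 ± 0.09 and the inhibitor PSMF1 of -0.13 ± 0.09, with edgeR adjusted p-values of 0.468 and above. PSME1 was at 27.8, 35.0 and 51.7 CPM in the DMSO controls, 37.0, 47.5 and 46.5 with HPPE, 38.4, 32.1 and 24.3 with zinc protoporphyrin and 45.8, 27.2 and 35.5 with tin protoporphyrin. PSME2 was at 24.6, 26.0 and 42.1 CPM in the DMSO controls, 29.1, 35.8 and 34.5 with HPPE, 21.1, 24.7 and 23.1 with zinc protoporphyrin and 36.1, 22.4 and 29.4 with tin protoporphyrin. In both genes replicate 3 of DMSO, a shallow library with 66 counts of PSME2, was the highest of the 12 libraries, so HPPE and DMSO overlapped. PSME3 was at 156, 179 and 191 CPM in the DMSO controls, 171, 189.8 and 186 with HPPE, 166, 171 and 153 with zinc protoporphyrin and 184, 163 and 168 with tin protoporphyrin, with all groups close together.

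None of the 5 assembly chaperones was called with HPPE. Their log2 fold changes were all above 0, with a median of 0.26, and 2 of the 5 separated from DMSO. POMP, which holds the maturing beta subunits (ENSG00000132963.8, chr13:28659104-28678925, plus strand), was at 40.2, 44.2 and 58.7 CPM in the DMSO controls, 53.5, 64.3 and 71.2 with HPPE, 37.6, 47.2 and 38.1 with zinc protoporphyrin and 64.7, 44.7 and 50.4 with tin protoporphyrin. Its highest DMSO library exceeded its lowest HPPE library. The log2 fold change was 0.46 ± 0.16 (SE, n = 3; edgeR adjusted p = 0.118), and 0.33 ± 0.10 with the length trend removed (adjusted p = 0.0574). PSMG1, which pairs with PSMG2 to build the alpha ring, was at 17.5, 15.2 and 15.95 CPM in the DMSO controls, 16.5, 18.8 and 17.7 with HPPE, 19.6, 16.6 and 13.1 with zinc protoporphyrin and 18.4, 13.5 and 13.5 with tin protoporphyrin. PSMG3, the partner of PSMG4, was at 21.6, 27.3 and 43.4 CPM in the DMSO controls, 30.9, 35.4 and 32.9 with HPPE, 27.9, 24.5 and 17.7 with zinc protoporphyrin and 40.4, 21.8 and 31.3 with tin protoporphyrin. Neither separated the groups, and with HPPE their log2 fold changes were 0.12 ± 0.16 and 0.26 ± 0.23 (adjusted p = 0.745 and 0.591). The other 2 chaperones, PSMG2 at 0.35 and PSMG4 at 0.24, did not overlap between HPPE and DMSO but were not called. In all, HPPE lay above DMSO without overlap in 9 members and below it in 1, against 11.9% and 9.44% of all genes.

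Leaving out single libraries moved the HPPE calls against DMSO between 0 and 4 of 47 members, and the share of all genes called higher between 1.33% and 3.8%. PSMA3 was not called without replicate 1 or 2 of DMSO, replicate 2 or 3 of HPPE, replicate 2 of zinc protoporphyrin or replicate 3 of tin protoporphyrin, nor with HPPE replicates 2 and 3 summed, and its adjusted p reached 0.246. Without replicate 3 of DMSO, POMP, PSMA3 and PSMC2 were called; without replicate 1 of HPPE, PSMA3 and PSMC2; without replicate 2 of tin protoporphyrin, PSMA3, PSMC2 and PSMD11; and without replicate 1 of tin protoporphyrin these 3 and POMP.

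The members not given library by library varied within their classes as follows. Of the alpha subunits PSMA1, PSMA2, PSMA4, PSMA5, PSMA6 and PSMA7, the log2 fold change with zinc protoporphyrin ran from -0.33 in PSMA4 to 0.49 in PSMA6, and with tin protoporphyrin from -0.01 in PSMA4 to 0.39 in PSMA6. Of the beta subunits PSMB1, PSMB2, PSMB3 and PSMB4, it ran with HPPE from 0.10 in PSMB2 to 0.33 in PSMB3, and with zinc protoporphyrin from -0.38 in PSMB3 to -0.16 in PSMB2. The ATPases PSMC1, PSMC3, PSMC5 and PSMC6 ran from -0.00 in PSMC3 to 0.31 in PSMC6 with HPPE and from -0.12 to -0.03 in the same genes with zinc protoporphyrin. The 10 other genes of the non-ATPase class were PSMD1 to PSMD3, PSMD5 to PSMD10 and PSMD13. They ran from -0.09 in PSMD2 to 0.21 in PSMD13 with HPPE and from -0.35 in PSMD9 to -0.01 in PSMD1 with zinc protoporphyrin. None of these 26 members, PSMG2 and PSMG4 included, was called against DMSO with any compound by edgeR.

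Zinc protoporphyrin against the DMSO control called none of the 47 members with edgeR, and none with DESeq2; 1.84% of all genes were called higher and 0.415% lower. At an unadjusted p under 0.05, 3 members lay higher and 2 lower, where 18.6% of all genes had such a p. The members leaned downward, with 5 of 47 log2 fold changes above 0 and a median of -0.12 (all genes: 49.5% above 0, median -0.00), and all 21 genes of the 19S cap were below 0, the lowest at -0.35 in PSMD9. PSMD11 differed by -0.23 ± 0.10 (SE, n = 3; adjusted p = 0.223), with every zinc protoporphyrin library below the lowest DMSO library, the closest by under 1 CPM. With the length trend removed the median of the members was -0.06. HMOX1 rose 7.81-fold in the same comparison.

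PSME4, 1 of the 5 members above 0 with zinc protoporphyrin, went the other way. It encodes PA200, a nuclear activator that caps the core in place of the 19S cap, and was at 175, 171 and 154 CPM in the DMSO controls, 185, 167 and 167 with HPPE, 193, 202 and 225 with zinc protoporphyrin and 162, 201 and 171 with tin protoporphyrin. All zinc protoporphyrin libraries lay above all DMSO and all HPPE libraries. The log2 fold change against DMSO was 0.31 ± 0.09 (SE, n = 3; edgeR adjusted p = 0.0934), and with the length trend removed 0.24 ± 0.06 (adjusted p = 0.0258), the 1 member then called (3.18% of all genes higher, 1.73% lower). HPPE against zinc protoporphyrin gave -0.26 ± 0.09 (adjusted p = 0.0696). PSMF1, the inhibitor PI31, was at 86.9, 89.6 and 111 CPM in the DMSO controls, 83.2, 90.7 and 82.0 with HPPE, 76.8, 84.1 and 79.2 with zinc protoporphyrin and 81.6, 79.3 and 83.9 with tin protoporphyrin, with both protoporphyrins below DMSO in all libraries. Its log2 fold changes were -0.21 ± 0.09 with zinc protoporphyrin (adjusted p = 0.224) and -0.20 ± 0.09 with tin protoporphyrin (adjusted p = 0.308). Zinc protoporphyrin lay above DMSO without overlap in 1 member and below it in 4, against 11.6% and 10.4% of all genes.

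Tin protoporphyrin against the DMSO control called no member either with edgeR or DESeq2, with 1 member higher and 1 lower at an unadjusted p under 0.05 (14.7% of all genes in either direction); 1.9% of all genes were called higher and 0.379% lower. The median was 0.01, with 26 of 47 members above 0 (all genes: 51.6%, median 0.01). Its sign was not stable: it was -0.06 with 17 members above 0 without replicate 1 of DMSO, -0.07 with 11 without replicate 1 of tin protoporphyrin, 0.08 with 35 without replicate 3 of DMSO and 0.10 with 34 without replicate 2 of tin protoporphyrin. Tin protoporphyrin lay above DMSO without overlap in 2 members, PSMA3 and PSMG4, and below it in 1, PSMF1 (10.3% and 7.6% of all genes). PSMG4 differed by 0.31 ± 0.12 (SE, n = 3; adjusted p = 0.248). The 95% interval of the log2 fold change lay within a 1.5-fold change either way for 41 of 47 members and within a 2-fold change for all 47. With the length trend removed no member was called (3.09% of all genes higher, 1.47% lower).

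HPPE against zinc protoporphyrin called 9 of 47 members higher and 0 lower, against 6.44% and 6.26% of all genes; DESeq2 called 8 of them, all but PSMC6, and 0 lower. They were PSMD11, ADRM1, PSMC2, PSMC4 and PSMC6 of the cap, PSMA4, PSMB3 and PSMB5 of the core, and POMP. In all, 42 of 47 log2 fold changes were above 0, with a median of 0.31, and HPPE lay above zinc protoporphyrin without overlap in 25 members and below it in 1, PSME4 (all genes: 50.9% above 0, 19% and 17.7% without overlap). At an unadjusted p under 0.05, 27 members lay higher and 1 lower, against 32.2% of all genes in either direction. The comparisons of each compound with DMSO share the controls, and this one shares its libraries with them.

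The largest step of PSMD11 was here: with the values given above, every HPPE library (from 181 CPM) exceeded every zinc protoporphyrin library (up to 145 CPM). The log2 fold change was 0.55 ± 0.10 (SE, n = 3; edgeR adjusted p = 0.00381), and 0.53 ± 0.08 with the length trend removed (adjusted p = 0.000382). It was called under all 23 alternatives, at 0.47 to 0.60. ADRM1 differed by 0.56 ± 0.14 (adjusted p = 0.0193) and by 0.38 ± 0.10 with the length trend removed (adjusted p = 0.0227), and POMP by 0.58 ± 0.16 (adjusted p = 0.0283) and 0.38 ± 0.10 (adjusted p = 0.0223). PSMC2 differed by 0.31 ± 0.09 (adjusted p = 0.0300).

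The other 5 calls were in the core and the ATPase ring. PSMB3, a structural beta subunit, ran from 39.8 to 54.8 CPM with HPPE and from 25.7 to 39.2 CPM with zinc protoporphyrin, the widest difference of the called members at 0.71 ± 0.19 (SE, n = 3; edgeR adjusted p = 0.0284). PSMB5 differed by 0.46 ± 0.14 and PSMA4, an alpha subunit, by 0.53 ± 0.16 (adjusted p = 0.0386 and 0.0384). The ATPases PSMC4 and PSMC6 differed by 0.34 ± 0.10 and 0.34 ± 0.10 (adjusted p = 0.0400 and 0.0420). With the length trend removed ADRM1, POMP, PSMB3, PSMB5, PSMC2 and PSMD11 were called, 6 members higher and 0 lower against 6.72% and 6.54% of all genes, and PSMA4, PSMC4 and PSMC6 were not (adjusted p = 0.0971, 0.126 and 0.0893). The median of the members then fell from 0.31 to 0.15, that of the 20S core from 0.38 to 0.27 and that of the 19S cap from 0.28 to 0.15.

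**Figure D5:**
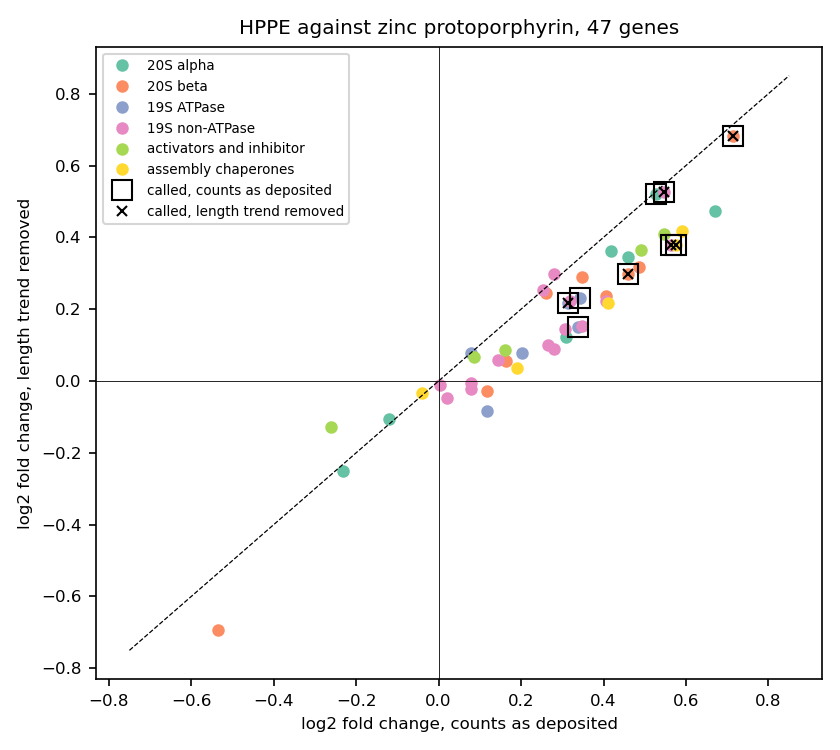
Each point is 1 of the 47 genes, with its log2 fold change of HPPE against zinc protoporphyrin on the counts as deposited (horizontal axis) and with each library's length trend removed (vertical axis); squares and crosses mark calls at an adjusted p under 0.05. Most points lie under the dashed line of equal values, and 6 of the 9 squares also hold a cross.

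Of the 9 called members 4 held the antioxidant response element letters and 5 did not: POMP, PSMB5, PSMC2, PSMC6 and PSMD11 had no match in their windows. The median log2 fold change of HPPE against zinc protoporphyrin was 0.32 in the 15 members with a match, from -0.26 in PSME4 to 0.71 in PSMB3, and 0.28 in the 26 members with a window and no match. Against DMSO these medians with HPPE were 0.12 and 0.20. PSMD3, another cap subunit with the letters, differed by 0.08 ± 0.10 between HPPE and zinc protoporphyrin (SE, n = 3; edgeR adjusted p = 0.602) and PSMD12 by 0.00 ± 0.09 (adjusted p = 0.991). Leaving out 1 library changed the number of members called higher to 5 (without replicate 2 of DMSO), 14 (replicate 3 of DMSO), 17, 1 and 2 (replicates 1, 2 and 3 of HPPE), 5, 3 and 1 (zinc protoporphyrin) or 18, 19 and 5 (tin protoporphyrin), and to 10 without replicate 1 of DMSO. The share of all genes called higher moved in the same fits: in that order it was 4.11%, 9.04%, 6.26%, 0.623%, 1.03%, 4.15%, 2.79%, 0.599%, 9.43%, 10.8%, 4.1% and 6.73%. Where 1 member was left it was PSMD11. With replicates 2 and 3 of HPPE summed, ADRM1 and PSMD11 were called.

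HPPE against tin protoporphyrin called 1 member, PSMC2, which was higher (0.745% of all genes higher, 0.709% lower). With the values given above, all HPPE libraries of PSMC2 exceeded all tin protoporphyrin libraries, at 0.35 ± 0.08 (SE, n = 3; edgeR adjusted p = 0.0429), and with the length trend removed at 0.31 ± 0.07 (adjusted p = 0.00800; 1.5% of all genes then higher, 1.62% lower). PSMD11 differed by 0.28 ± 0.09 (adjusted p = 0.186) and PSMD6, another cap subunit, by 0.25 ± 0.09 (adjusted p = 0.217), both without overlap. The members' median was 0.14 with 40 of 47 above 0 (all genes: 50.6%, median 0.00). HPPE lay above tin protoporphyrin without overlap in 3 members, PSMC2, PSMD11 and PSMD6, and below it in 1, PSMB10 (9.81% and 10.1% of all genes). PSMC2 was not called in 12 of 23 alternatives, among them the removal of replicate 2 or 3 of HPPE, and its adjusted p reached 0.256.

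The protoporphyrins, which differ in their metal and were given at the same dose and time, had no member called between them by edgeR or DESeq2; 0.00611% of all genes were called higher and 0% lower with zinc than with tin protoporphyrin. At an unadjusted p under 0.05, 1 member lay higher, PSME4 (0.22 ± 0.09, SE, n = 3, edgeR adjusted p = 0.353), and 5 lower, where 13.3% of all genes had such a p. The lower ones were PSMG3 (-0.50), PSMA1 (-0.49), PSMA7 (-0.36), POMP (-0.35) and PSMD11 (-0.27). No member separated the groups without overlap in either direction, against 6.56% and 6.38% of all genes. With the length trend removed none was called (0.0367% of all genes higher, 0.104% lower). The median was -0.11 and 9 of 47 members were above 0. The 95% intervals lay within a 1.5-fold change either way for 33 of 47 members and within a 2-fold change for 46, the exception being PSMB8. The interval of PSMD11 was -0.47 to -0.07, which does not reach the size of 0.55 called for this gene between HPPE and zinc protoporphyrin. That of ADRM1 was -0.57 to 0.01 and just reached the size of 0.56 called for it there.

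With a library axis as a covariate (the first principal component of the libraries' deviations within groups), many more genes and members were called. The axis is computed from the deviations that it removes, which makes its p-values too small. HPPE against DMSO then gave 12 members higher and 0 lower, beside 8.85% and 7.47% of all genes. Zinc protoporphyrin against DMSO gave 1 higher and 15 lower (13.7% and 11.7% of all genes), and tin protoporphyrin 0 higher and 1 lower (7.7% and 5.79%). HPPE against zinc protoporphyrin gave 30 higher and 1 lower (18.4% and 16.4%), HPPE against tin protoporphyrin 19 higher and 0 lower (8.29% and 7.56%), and zinc against tin protoporphyrin 1 higher and 9 lower (7.46% and 6.9%).

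Lists of genes around the proteasome were read beside the same shares of all genes, 2.57% called higher and 1.47% lower with HPPE against DMSO. Of 12 genes of the NRF1 and NRF2 axis 2 rose: MAFG, a small MAF partner, by 0.45 ± 0.08 (SE, n = 3; edgeR adjusted p = 0.00185) and KEAP1, the adaptor that marks NRF2 for degradation, by 0.42 ± 0.09 (adjusted p = 0.0145). NFE2L1 itself was at 380.4 ± 26.6 CPM in DMSO and 341 ± 6.63 CPM with HPPE (SD, n = 3; -0.16 ± 0.08, adjusted p = 0.319), and DDI2, the protease that activates NRF1, differed by -0.24 ± 0.12 (adjusted p = 0.287). Of 14 ubiquitin and shuttle genes 1 rose, SQSTM1, which encodes the autophagy receptor p62, from 87.4 ± 6.79 to 218 ± 13.0 CPM (1.30 ± 0.09, adjusted p = 4.74e-08). None of 14 genes of proteasome-bound proteins, of 9 genes of the p97 unfoldase and its cofactors or of 12 genes of antigen presentation was called by edgeR. At an unadjusted p under 0.05 they held 3 higher and 1 lower, 2 and 0, and 1 and 1 genes. Of all genes, 17.7% had such a p in either direction. VCP, which encodes p97, differed by 0.26 ± 0.08 (adjusted p = 0.0663). Neither protoporphyrin called any of the 61 tested genes of these 5 lists against DMSO. At an unadjusted p under 0.05, 2 were higher and 2 lower with zinc protoporphyrin (18.6% of all genes in either direction). With tin protoporphyrin 3 were higher and 2 lower (14.7% of all genes).

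HPPE against zinc protoporphyrin, where 6.44% of all genes were called higher and 6.26% lower, called genes in each of the same lists. In the NRF1 and NRF2 axis MAFG (0.53), KEAP1 (0.48) and SYVN1, an ubiquitin ligase of the endoplasmic reticulum (0.62), were higher on the log2 scale. Of the proteasome-bound proteins 4 were higher, AKIRIN2 (the factor that brings proteasomes into the nucleus, 0.47), ZFAND5 (0.28), ZFAND2A (0.74) and PITHD1 (0.67), and 1 lower, the ubiquitin ligase UBE3A (-0.33). UBB (0.55), SQSTM1 (1.03), VCP (0.30), UBXN4 (0.40) and B2M (0.69) were higher as well (edgeR, adjusted p under 0.05 in each). Against tin protoporphyrin HPPE gave higher MAFG (0.45), SQSTM1 (1.08) and UBXN4 (0.34). Across the 12 libraries, which the values share, the genes whose CPM followed the 20S sum most closely were SSR2, HINT1, SERF2, ID2 and RPS27A, by Pearson correlation among 10386 genes at a mean of at least 10 CPM.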

How the data were processed

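RNA of 12 SH-SY5Y libraries was measured by mRNA sequencing. The authors deposited 1 table of whole-number counts per gene, not normalized; per the submitters' processing notes it was made with fastp 0.21.1, STAR 2.7.7a and featureCounts on GRCh38, and annotation and strand setting are not given in the sources used here. Of 60710 Ensembl identifiers 60481 matched a symbol. Genes were filtered by group with filterByExpr (16366 left, 99.6% of counts) and tested with edgeR 4.0.16 in R 4.3.3: TMM scaling, 1 model with a mean per group, robust quasi-likelihood fit, 6 two-sided comparisons, Benjamini-Hochberg adjustment over all genes tested, called at an adjusted p under 0.05. SE came from the F statistic. CPM and TPM were computed from the deposited counts. The length trend, a lowess curve (span 0.3) fitted per library to deviations from gene means against the longest GENCODE 29 transcript, was removed as an offset (98.9% of tested genes had such a transcript).

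The members and gene lists were chosen with earlier results of these data known. Values per library are given for called members (at most 3 per comparison by smallest p), the catalytic, ubiquitin-receptor, deubiquitinase, activator, inhibitor and chosen chaperone genes; others by fold change or range. Alternatives were other filters, RLE or no scaling, DESeq2 1.42.0, a fit on only the groups compared, estimation without robust weights, a block for replicate numbers, and the removal of each library; the length trend, a library axis (first principal component of within-group deviations, 52.7% of their variance) and HPPE replicates 2 and 3 summed were chosen after seeing the data. Tested on simulated counts for HPPE against DMSO (16366 genes), the model recovered 46.0% of 1.5-fold and 80.7% of 2-fold changes, with 4.82% and 5.29% false calls. The simulated counts were independent, shared a single spread over all genes and held neither the length trend nor the library axis. These rates therefore do not carry over to the real libraries. Some genes outside the members are not reported here. Total counts per library ran from 1337028 to 9145399.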

Additional observations from a re-analysis of the deposited data

How the results depend on the processing

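Of 6481 recomputed log2 fold changes of single members, 5989 kept direction and side of the threshold, 169 passed it, 79 lost it and 244 changed sign, 89 of them for tin protoporphyrin against DMSO; none of the 244 was called in either fit (lowest adjusted p 0.450). Without a filter beyond 1 count, 3 members were called higher with HPPE against DMSO (1.42% of all genes), 1 lower with zinc protoporphyrin against DMSO (0.866%), 22 higher with HPPE against zinc protoporphyrin (4.62%) and 2 lower with zinc against tin protoporphyrin (0.518%). With the compared groups only, these were 3 for HPPE against DMSO (2.78%), 27 higher and 1 lower for HPPE against zinc protoporphyrin (13.9% and 12.5%) and 0 for HPPE against tin protoporphyrin (0.538%). With unscaled library sizes HPPE against tin protoporphyrin gave 0 (0.617%). With HPPE replicates 2 and 3 summed, the calls were 0 against DMSO (1.73%), 2 against zinc protoporphyrin (1.42%) and 0 against tin protoporphyrin (0.415%).

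With the length trend removed, 3 members were called higher with HPPE against DMSO (4.21% of all genes) and 1 with zinc protoporphyrin against DMSO (3.18%). The shares of all genes for the library axis are given above. With the library axis as a covariate, HPPE against DMSO gave 12 higher, zinc protoporphyrin against DMSO 1 higher and 15 lower, tin protoporphyrin against DMSO 1 lower, HPPE against zinc protoporphyrin 30 higher and 1 lower, HPPE against tin protoporphyrin 19 higher and zinc against tin protoporphyrin 1 higher and 9 lower; the axis is computed from the same deviations that it removes, so its p-values are too small.

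Replicate numbers did not pair the libraries: deviations of same-numbered libraries correlated from -0.68 to 0.52 over 18 pairs. With the replicate number as a block, 0 members were called with HPPE against DMSO (1.8% of all genes higher), 2 against zinc protoporphyrin (ADRM1 and PSMD11; 2.38%) and 0 against tin protoporphyrin (0.477%). Leaving out each library in turn gave 0 to 4 members called higher with HPPE against DMSO (1.33% to 3.8% of all genes). It gave 0 to 1 higher with zinc protoporphyrin against DMSO (0.489% to 3.22%). HPPE against zinc protoporphyrin gave 1 to 19 higher (0.599% to 10.8%) and 0 to 1 lower (0.44% to 10.6%). HPPE against tin protoporphyrin gave 0 to 1 higher (0.336% to 1.06%). Zinc against tin protoporphyrin gave 0 to 1 higher and 0 to 4 lower. Its calls came without replicate 2 of tin protoporphyrin, where 5.03% of all genes were called higher and 4.08% lower. In the other fits of that comparison at most 0.00611% were called in either direction. The median of the members ran from 0.09 to 0.27 with HPPE, from -0.19 to -0.05 with zinc protoporphyrin and from -0.07 to 0.10 with tin protoporphyrin, each against DMSO; the last was also below 0 with DESeq2 (-0.01), the length trend removed (-0.01) and the library axis (-0.03). Depth limited PSMB8, PSMB10 and PSMA2, which lie near the floor of the shallow libraries.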
